A study of Rattus norvegicus and Heterocephalus glaber with 6 samples.

Results

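Genes of glucose breakdown, glucose synthesis and lactate metabolism were followed in the livers of naked mole rats (NMR, a subterranean rodent that tolerates low oxygen) and rats. The members were 45 listed gene symbols, and a row counted as a member when its identifier equalled a listed symbol, ignoring case. Of the 45, 42 were found among the 22517 symbols listed for rat; Hk1, Pgam1 and Gckr had no row of that name and were skipped. For NMR, 1 of the 45, LDHA, was found among 567 symbols. Both groups, 3 NMR libraries and 3 rat libraries, were exposed to 8% oxygen for 8 hours, per the labels, which give no strain, sex or age. The normoxic animals mentioned in the series design were not analysed here, so nothing below compares low with normal oxygen. The labels do not say that each library came from a different animal, so errors and p-values cover the spread between these samples, which may be technical.

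Values are FPKM, fragment numbers divided by transcript length and by library size, and can be compared between genes. Depth in reads is unknown because the tables hold FPKM alone. The steps between values under 0.1 FPKM gave a depth ratio of 1.05 for rat 1 over rat 2 and of 0.983 for rat 1 over rat 3. FPKM totals were 17543 to 21794 over the 734 rows of an NMR library and 527133 to 557187 over the 22549 rows of a rat library. Of the hepatocyte markers, 4 of 4 with a value in each rat reached a mean of 1 FPKM, and of the muscle markers 0 of 4 did. Whole liver holds several cell types, and fewer cells of a type cannot be told apart from less RNA per cell.

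Glycolysis splits glucose into pyruvate, which lactate dehydrogenase can turn into lactate when oxygen is short. The liver also runs the path backwards: gluconeogenesis rebuilds glucose from lactate and amino acids and releases it to the blood, using separate enzymes at the steps that glycolysis cannot reverse. Most of these enzymes exist as isozymes encoded by different genes, with a form typical of liver and others typical of muscle, brain, testis or dividing cells. Insulin is known to repress phosphoenolpyruvate (PEP) carboxykinase and glucose-6-phosphatase, whereas fasting and glucagon are known to raise the gluconeogenic pair.

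Short sequence elements ahead of some of these genes are textbook examples of such control, and the 250 bases before the transcription start are printed for 4 of the members described below. The core of the site bound by hypoxia-inducible factors (HIF) was searched as ACGTG, the core of the cyclic AMP response element as ACGTCA, and the carbohydrate response element as CACGNG and CNCGTG with 5 bases between them, each on both strands. Capitals mark the matches, Ldha and Gapdh for the HIF core, Pck1 for the cyclic AMP element and Pklr for the carbohydrate element. Sequences are from RefSeq on build GRCr8, read 5′ to 3′ on the strand of the gene: Ldha at chr1:106507842-106508091 (plus), Gapdh at chr4:159652468-159652717 (minus), Pck1 at chr3:182348322-182348571 (plus) and Pklr at chr2:176841014-176841263 (plus).
Ldha: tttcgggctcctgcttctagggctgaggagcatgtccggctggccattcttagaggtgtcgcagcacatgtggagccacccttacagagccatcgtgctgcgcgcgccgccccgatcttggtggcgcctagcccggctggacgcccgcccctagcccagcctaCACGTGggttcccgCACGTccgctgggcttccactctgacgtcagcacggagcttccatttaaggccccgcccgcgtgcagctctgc
Gapdh: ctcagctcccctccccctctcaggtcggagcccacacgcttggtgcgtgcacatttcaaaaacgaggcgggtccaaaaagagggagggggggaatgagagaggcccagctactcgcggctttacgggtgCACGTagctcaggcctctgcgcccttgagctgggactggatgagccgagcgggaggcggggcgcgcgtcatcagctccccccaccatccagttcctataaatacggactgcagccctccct
Pck1: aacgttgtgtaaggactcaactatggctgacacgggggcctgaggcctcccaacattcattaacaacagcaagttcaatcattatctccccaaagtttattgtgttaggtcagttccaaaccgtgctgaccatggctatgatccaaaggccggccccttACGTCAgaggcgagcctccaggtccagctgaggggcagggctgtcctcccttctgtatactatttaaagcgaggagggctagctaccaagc
Pklr: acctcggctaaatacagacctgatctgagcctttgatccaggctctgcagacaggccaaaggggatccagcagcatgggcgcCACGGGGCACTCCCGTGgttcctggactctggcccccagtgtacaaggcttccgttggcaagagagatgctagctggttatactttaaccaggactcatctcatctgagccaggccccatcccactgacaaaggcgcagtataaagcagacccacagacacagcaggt

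In Ldha the HIF core matched 3 times, at bases -87 to -83, -86 to -82 and -73 to -69 before the start; the first 2 overlap on opposite strands in a palindrome. Gapdh held 1 match, at -121 to -117. Promoter windows were matched for 39 of the 42 members, 37 by symbol and 2 by an older symbol, with 43 windows in all because some genes have more than 1 start. The HIF core was present in 14 of these 43 windows (32.6%), against 16.6% of the 33469 rat windows in the RefSeq table. Members with it were Aldoa, Aldoc, Eno2, G6pc3, Gapdh, Hk3, Ldha, Pdhb, Pdk2, Pdk3, Pfkfb3, Pfkm, Slc16a1 and Slc2a1. Their levels, given below, ran from under 1 FPKM (Eno2, Hk3, Pdk3 and Pfkfb3) up to Ldha. The Pdk1 window held no match. The cyclic AMP core was present in 6 of 43 (14.0%), against 6.95%, in Pck1 (at -91 to -86), Ldha, Ldhc, Slc37a4 and Tpi1. The carbohydrate element was present in Pklr, at -168 to -152, and in no other member window, and in 7 of the 33469 windows (0.0209%). These matches describe letters in the window and were not tested against the expression values, and the motifs share letters, so that 1 stretch can match more than 1 of them.

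In rat liver the genes of the main route were abundant. Of the 42 members, 23 reached a mean of 10 FPKM and 15 reached 100 FPKM; over all 22516 rat symbols with 3 values, 17.4% reached 10 FPKM and 2.94% reached 100 FPKM. Another 9 members lay between 1 and 10 FPKM, and 10 lay under 1. The median of the members was 22.0 FPKM, against 0.450 FPKM over all symbols, and together they made up 1.18% to 1.29% of the FPKM total of a rat library. Of the 10 members taken as the liver form of a step, 7 reached 100 FPKM, whereas 0 of the 22 other isozymes did. This split was made with earlier results of these data known, so the contrast is descriptive.

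**Figure D1:**
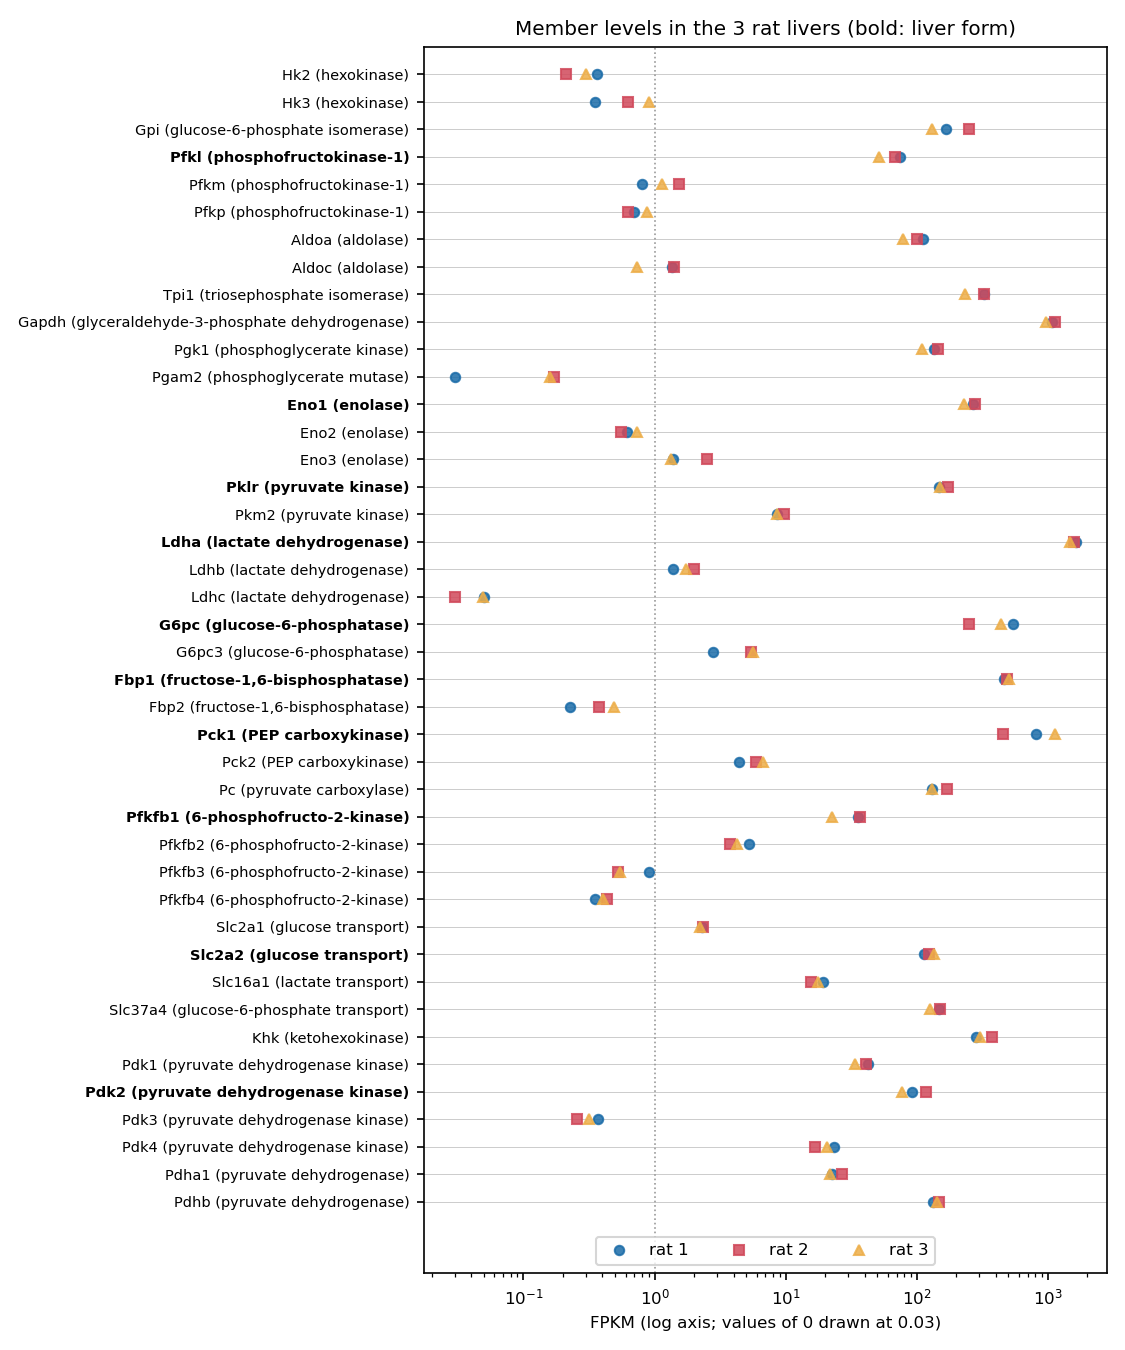
FPKM of each of the 42 members found in the rat tables, on a log axis, with 1 point per rat and liver forms in bold. Liver forms and enzymes without isozymes in the list lie at the upper end, up to Ldha at 1636 FPKM in rat 1, and most other isozymes lie near or below the dotted line at 1 FPKM.

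At glucose entry the liver transporter far exceeded the general one, and the hexokinases Hk2 and Hk3 were low. Slc2a2, the low-affinity glucose transporter GLUT2 of hepatocytes, was at 113, 123 and 135 FPKM in rat 1, rat 2 and rat 3. Slc2a1, the transporter GLUT1 of many tissues and inducible by HIF, was at 2.29, 2.35 and 2.21 FPKM. The levels of the transporters did not overlap, and Slc2a1 was nearly level between the rats. Hk2, the hexokinase of muscle and many tumours, was at 0.361, 0.212 and 0.298 FPKM, and Hk3, a hexokinase of blood cells, at 0.350, 0.624 and 0.911 FPKM. Both hexokinases were under 1 FPKM in every rat. The neutrophil markers (4 genes, 3 with a mean of at least 1 FPKM; Mpo under 0.1 FPKM) summed to 3.22, 9.14 and 12.2 FPKM in the same rats. The Kupffer cell or macrophage markers (6 genes, 4 of them with a mean of at least 1 FPKM, Marco and Emr1 listed at 0) summed to 97.3, 109 and 135 FPKM; their part in the Hk3 values was not tested.

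The first committed step of glycolysis was represented mainly by the liver forms of its enzyme and of its regulator. Pfkl, the liver form of phosphofructokinase, was at 74.0, 67.7 and 51.8 FPKM. Its muscle form Pfkm was at 0.800, 1.54 and 1.13 FPKM and its platelet form Pfkp at 0.695, 0.624 and 0.878 FPKM. The liver form therefore held 96.3% to 98.0% of the summed FPKM of this step. Pfkfb1 encodes the liver form of the enzyme that both makes and removes fructose 2,6-bisphosphate, the activator of phosphofructokinase. It was at 35.8, 37.1 and 22.4 FPKM, lowest in rat 3. Of the other forms of this enzyme, Pfkfb2 (heart) was at 5.22, 3.76 and 4.27 FPKM. Pfkfb3, a form inducible by HIF, was at 0.910, 0.530 and 0.547 FPKM. Pfkfb4, a testis form, was at 0.351, 0.434 and 0.407 FPKM. The liver form exceeded the sum of the other 3 by 4.29-fold to 7.86-fold, a smaller margin than at the phosphofructokinase step.

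The enzymes of the reversible steps, which serve both directions, were among the most abundant members. Gpi, glucose-6-phosphate isomerase, was at 167, 251 and 131 FPKM, with rat 2 well above the others. Aldoa, the muscle form of aldolase, was at 111, 101 and 77.9 FPKM and Aldoc, the brain form, at 1.35, 1.41 and 0.732 FPKM. Aldoa was as abundant as liver forms of other steps, and Aldoc was near 1 FPKM. Tpi1, triosephosphate isomerase, was at 325, 324 and 233 FPKM, and Gapdh, glyceraldehyde-3-phosphate dehydrogenase, at 1079, 1134 and 967 FPKM. Pgk1, the phosphoglycerate kinase that makes ATP, was at 135, 144 and 110 FPKM. All 3 of these were lowest in rat 3, without a gap of more than 1.5-fold. Pgam2, the muscle phosphoglycerate mutase, was listed at 0 in rat 1 and was at 0.169 and 0.160 FPKM in rat 2 and rat 3; its row lies within that of Dbnl. Eno1, the enolase of most tissues, was at 270, 279 and 231 FPKM. Its neuronal form Eno2 was at 0.617, 0.554 and 0.737 FPKM and its muscle form Eno3 at 1.38, 2.53 and 1.32 FPKM, far below Eno1 in each rat.

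Genes such as Gapdh, Ldha, Aldoa, Tpi1, Pgk1 and Eno1 have processed copies in rodent genomes, so fragments may be divided between copies and these levels are uncertain. Rows of other genes overlap those of Aldoa, Tpi1, Pgam2, Pc and Pdha1, and whether the counting used strand is not stated in the labels; of these, Dbnl over Pgam2 was the highest, at 10.2, 11.0 and 13.2 FPKM. Among rows named as processed copies, Eno1-ps1 was at 6.40, 8.06 and 5.03 FPKM, and Gapdh-ps1 at 0, 0.00818 and 0 FPKM.

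Pyruvate and lactate formation was dominated by Pklr and Ldha transcripts. Pklr, the pyruvate kinase of liver and red cells, was at 147, 172 and 149 FPKM. Pkm2, the symbol under which the tables list the muscle-type gene, was at 8.53, 9.77 and 8.63 FPKM. The ratio of Pklr to Pkm2 hardly moved between rats, at 17.2, 17.6 and 17.3. Ldha, the muscle-type subunit of lactate dehydrogenase that liver also uses, was the highest of the members, at 1636, 1584 and 1480 FPKM, which put it at rank 41 of the rat rows. Ldhb, the heart-type subunit, was at 1.39, 2.003 and 1.74 FPKM. Ldhc, the testis subunit, was at 0.04999 FPKM in rat 1, listed at 0 in rat 2 and at 0.0492 FPKM in rat 3. Ldha and Ldhc are neighbours on chromosome 1, from 97403076 to 97412547 and from 97418621 to 97435275 in the coordinates of the deposited tables (build not given in the sources used here), 6074 bp apart. Slc16a1, the lactate and pyruvate carrier MCT1, was at 19.1, 15.6 and 17.6 FPKM. The other carriers Slc16a7 (MCT2) and Slc16a3 (MCT4, which is inducible by HIF) were at 11.3, 12.8 and 11.8 FPKM and at 0.372, 0.334 and 0.261 FPKM.

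At the entry into the citric acid cycle several kinase genes were present together. Pdha1 and Pdhb, the subunits of the pyruvate dehydrogenase E1 enzyme, were at 22.6, 26.9 and 21.7 FPKM and at 133, 149 and 142 FPKM. The kinases that switch this enzyme off showed no form far above the rest. Pdk2 was at 91.5, 117 and 76.5 FPKM, Pdk1, a HIF target, at 42.6, 40.9 and 33.7 FPKM, and Pdk4, induced by fasting, at 23.5, 16.7 and 20.8 FPKM. Pdk3 was at 0.368, 0.257 and 0.313 FPKM. Pdk2 was above Pdk1, Pdk1 above Pdk4 and Pdk4 above Pdk3 in each of the 3 rats, without overlap between neighbours in that order.

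Glucose production was represented by 4 abundant genes, of which G6pc and Pck1 varied most between rats. G6pc, the glucose-6-phosphatase of liver and kidney, was at 540, 249 and 437 FPKM, and G6pc3, its form in most tissues, at 2.77, 5.44 and 5.64 FPKM. Slc37a4, which carries glucose-6-phosphate to that enzyme, was at 148, 151 and 127 FPKM, without the dip that G6pc had in rat 2. Fbp1, fructose bisphosphatase, was at 461, 491 and 503 FPKM, and its muscle form Fbp2 at 0.226, 0.379 and 0.489 FPKM. Fbp1 and Fbp2 also lie side by side, on chromosome 17 from 7795716 to 7818041 and from 7824297 to 7841661, 6256 bp apart. Pck1, the cytosolic PEP carboxykinase, was at 817, 451 and 1139 FPKM and Pck2, the mitochondrial form, at 4.42, 5.96 and 6.76 FPKM. G6pc and Pck1 were both lowest in rat 2, whereas Fbp1 barely differed between rats. Pc, pyruvate carboxylase, which feeds pyruvate into the path, was at 131, 170 and 132 FPKM. Khk, ketohexokinase, which starts fructose breakdown, was at 281, 377 and 303 FPKM, highest in rat 2.

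At each step the isozymes were compared as the ratio of the liver form to the summed other forms within a library. The liver form was higher in 3 of 3 rats at each of the 10 steps that had a liver form and another form in the tables. The steps and their forms were chosen with earlier results of these data known. Some forms taken as the liver form, such as Eno1 and Ldha, are not specific to liver. The count of steps is therefore a description and no independent test. The widest margins were 1395-fold for Fbp1 over Fbp2 and 907-fold for Ldha over Ldhb and Ldhc (geometric means; log2 ratios of 10.45 ± 0.50 and 9.82 ± 0.29, SD, n = 3). Then came Pck1 over Pck2 with 133-fold (7.06 ± 0.71 on the log2 scale), Eno1 over Eno2 and Eno3 with 111-fold (6.80 ± 0.29) and G6pc over G6pc3 with 88.5-fold (6.47 ± 1.06). Slc2a2 exceeded Slc2a1 by 54.0-fold (5.76 ± 0.16), Pfkl exceeded Pfkm and Pfkp by 34.2-fold (5.10 ± 0.48), and Pklr exceeded Pkm2 by 17.3-fold (4.12 ± 0.02). The narrowest margins were 5.71-fold for Pfkfb1 (2.51 ± 0.44) and 1.57-fold for Pdk2 over the other 3 kinases (0.65 ± 0.32).

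Each of these log2 ratios was larger than the SD between rats. An exact two-sided sign-flip permutation test over 3 rats gave p = 0.25 at each step, which is the smallest p that 3 libraries allow, so no step could pass 0.05. For the forms under 1 FPKM (Fbp2, Ldhc, Eno2, Pfkp, Pfkfb3, Pfkfb4 and Pdk3) the sizes of the ratios rest on low values; with 1 FPKM added to both sides the log2 ratio of Fbp1 over Fbp2 was 8.48.

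**Figure D2:**
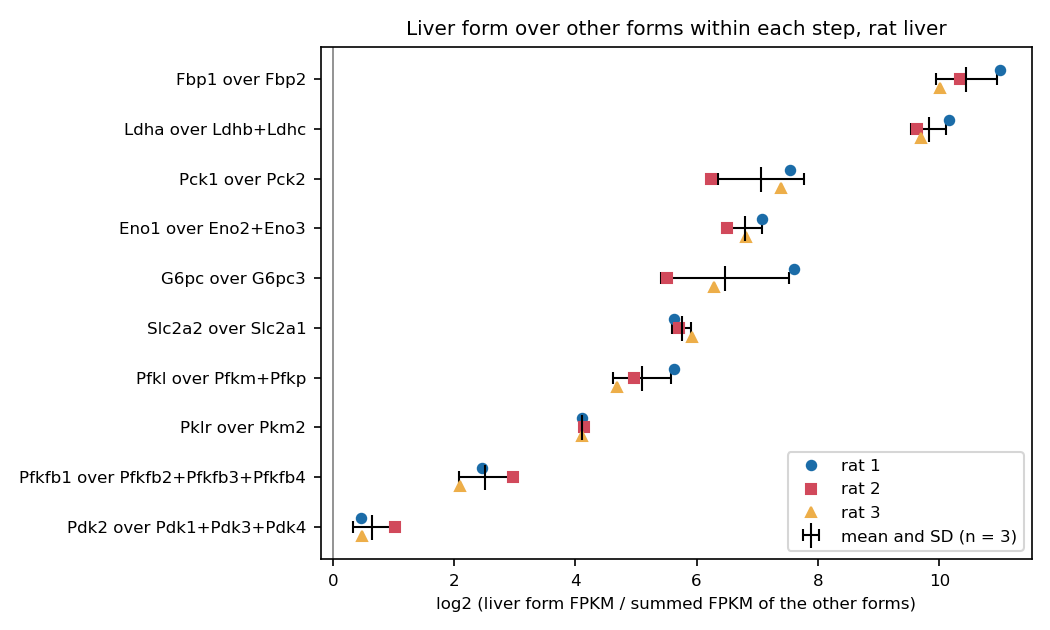
log2 ratio of liver form FPKM to the summed FPKM of the other forms for 10 steps, with 1 point per rat and the mean and SD (n = 3). All points lie right of 0, from 0.46 for Pdk2 in rat 1 to 11.00 for Fbp1 in rat 1.

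At the steps where gluconeogenesis and glycolysis use opposed enzymes, the gluconeogenic gene was the higher at 3 of 4 ratios examined. Fbp1 exceeded Pfkl by 6.23-fold, 7.25-fold and 9.70-fold in rat 1, rat 2 and rat 3 (log2 ratio 2.93 ± 0.32, SD, n = 3). Pck1 exceeded Pklr by 5.57-fold, 2.63-fold and 7.64-fold (2.27 ± 0.79). The narrowest Pck1 margin was in rat 2. G6pc exceeded the summed Hk2 and Hk3 by 298-fold to 760-fold (8.76 ± 0.71), a sum that holds no Hk1. Pc was level with Pklr, at ratios of 0.890, 0.991 and 0.883 (-0.12 ± 0.09). The exact two-sided sign-flip permutation test again gave its smallest value, p = 0.25, for each of the 4 ratios. Transcript levels are given here, not enzyme activity or flux.

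**Figure D3:**
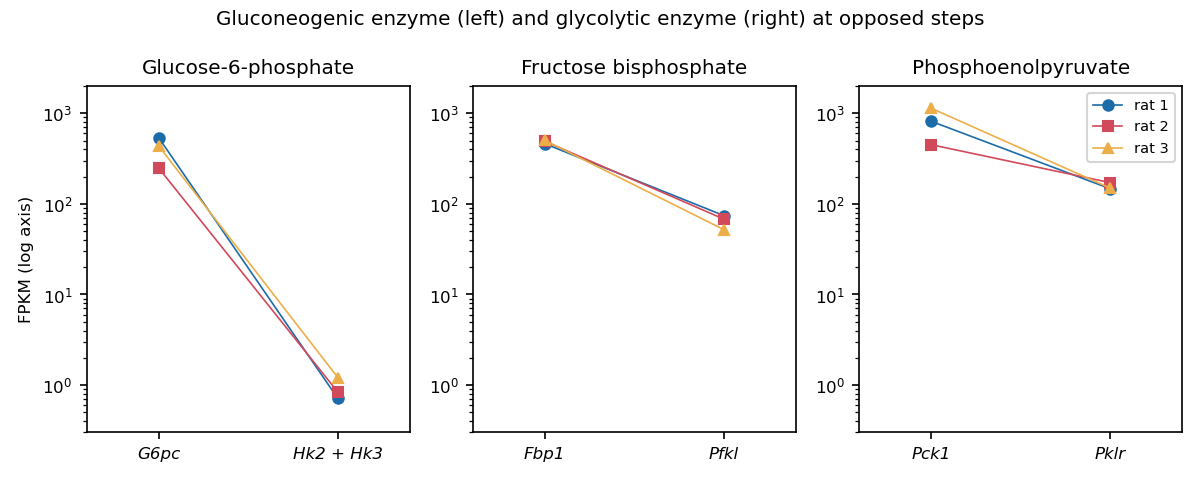
FPKM on a log axis of the gluconeogenic enzyme (left of each panel) and the glycolytic enzyme (right; Hk2 and Hk3 summed in the first panel) at 3 opposed steps, with a line per rat. In rat 2, G6pc (249 FPKM) and Pck1 (451 FPKM) are lowest, and the gluconeogenic gene is the higher in each panel.

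Most members had a wider spread between rats than the median gene. On log2(FPKM + 1), after scaling the rats by their median ratio (factors of 0.957, 1.04 and 1.005), 23 of the 32 members with a mean of at least 1 FPKM had an SD above the median of all 9991 such rows. Their median SD was 0.199, against 0.128 over all these rows. Pck1 had the widest spread, with an SD of 0.71, larger than that of 98.6% of all rows, and G6pc followed with 0.63, larger than 98.1%. Gpi (0.44), G6pc3 (0.42) and Pfkfb1 (0.40) came next. At the other end, Pdhb had an SD of 0.02 and Fbp1 and Slc2a1 of 0.04 each.

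The 2 widest members moved alike: both were lowest in rat 2, where 34.5% of all rows of at least 1 FPKM were lowest. The ratio of the highest to the lowest scaled value was 2.62 for Pck1 (highest in rat 3) and 2.36 for G6pc (highest in rat 1). Tat, a glucocorticoid- and glucagon-inducible enzyme of tyrosine breakdown from the hepatocyte marker list, was at 1023, 429 and 1221 FPKM. Igfbp1, which insulin represses, was picked with its values known and was at 97.5, 22.4 and 68.4 FPKM. Tat and Igfbp1 were thus also lowest in rat 2. Without rat 2 the SD of Pck1 was 0.29 and that of G6pc 0.26, so their wide spread rests on that library. Ppargc1a, a coactivator of the gluconeogenic genes, was at 0.837, 1.29 and 1.17 FPKM and was lowest in rat 1. Feeding state, time of day and hormones are not in the labels, and their part was not tested.

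The genes of glycolysis showed another pattern. Of the 9 glycolytic members above 50 FPKM (Gpi, Pfkl, Aldoa, Tpi1, Gapdh, Pgk1, Eno1, Pklr and Ldha, a group chosen after the values were seen), all 9 were lowest in rat 3 on scaled values, against 33.2% of all rows of at least 1 FPKM. On FPKM as deposited, 8 of the 9 were lowest in rat 3, against 28.9% of all rows, and Pklr was lowest in rat 1. The differences were small for most of these genes: the highest rat exceeded the lowest by 1.11-fold for Pklr, 1.16-fold for Ldha and 1.17-fold for Gapdh, and by 1.503-fold for Aldoa and 1.85-fold for Gpi. Over all members of at least 1 FPKM, 19 of 32 were lowest in rat 3 (16 of 32 as deposited). On scaled values these included Pc, Slc37a4, Pfkfb1, Pdk1, Pdk2 and Pdha1. The count was also 19 of 32 among the further pathway genes described below, so being lowest in rat 3 was not particular to glycolysis. The marker sums of other cell types did not all move one way in rat 3, but most were highest there. Those of Kupffer cells or macrophages and of neutrophils (both above) were highest in rat 3, though S100a8 was highest in rat 2. So was that of cholangiocytes (4 genes, 2 of at least 1 FPKM), at 11.6, 12.8 and 16.6 FPKM. Platelet markers (2 genes, 1 of at least 1 FPKM) summed to 4.08, 4.94 and 7.13 FPKM. Hbb, the red cell marker, was close to level in rat 2 and rat 3. The sum of sinusoidal endothelium (4 genes, 4 of at least 1 FPKM) was lowest in rat 3, at 56.8, 51.5 and 49.1 FPKM. The endothelial sum was lowest in rat 3 through Lyve1 and Pecam1, whereas Stab2 and Clec4g were lowest in rat 2. Stellate or fibroblast markers (5 genes, 4 of at least 1 FPKM) summed to 10.3, 8.86 and 13.4 FPKM, a sum highest in rat 3 through Dcn and Des, whereas Col1a1 and Reln were highest in rat 1. The hepatocyte marker sum (4 genes, 4 of at least 1 FPKM) was 12082, 14578 and 12637 FPKM, most of it Ttr at 9869, 12914 and 10322 FPKM. Alb had no value in rat 1 and rat 2 and is not in this sum. As deposited, Cps1 was highest in rat 2, Hnf4a in rat 1 and Tat in rat 3. On scaled values Ttr, Cps1 and Hnf4a were lowest in rat 3, like the glycolytic genes, and Tat was lowest in rat 2. Scaled Cps1 was at 1100, 1068 and 975. Scaled Ttr was nearly as low in rat 1 (10308) as in rat 3 (10269), and scaled Hnf4a nearly as low in rat 2 (115.2) as in rat 3 (115.0). The part of cell composition in the lower glycolytic values was not tested, and 3 single libraries allow no test of 1 against the others.

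**Figure D4:**
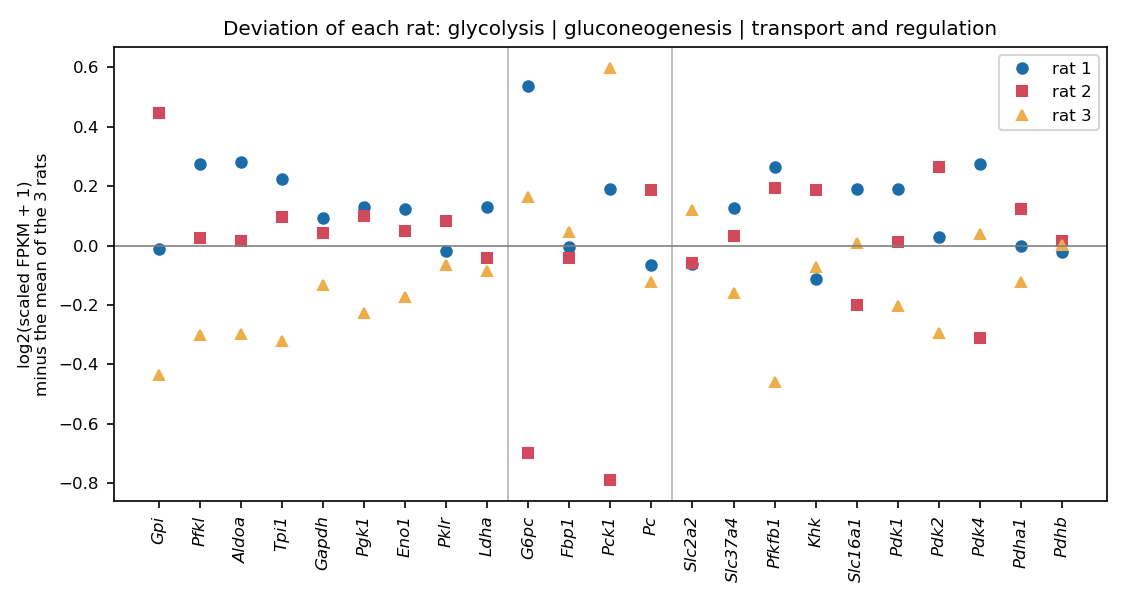
Deviation of each rat from the mean of the 3 rats on log2(scaled FPKM + 1) for the 23 members of at least 10 FPKM, in 3 groups set apart by vertical lines. Rat 3 is lowest for each of the 9 glycolytic genes, and rat 2 lies 0.70 below the mean for G6pc and 0.79 below it for Pck1.

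Shuttles, fructose enzymes and the pyruvate carrier were also abundant. Of 52 further symbols for related enzymes, carriers and regulators, 42 were in the rat tables, 20 reached a mean of 10 FPKM and 9 reached 100 FPKM; their median was 8.53 FPKM. Gpd1, cytosolic glycerol-3-phosphate dehydrogenase, which recycles NADH made in glycolysis, was at 642 ± 54.6 FPKM (SD, n = 3), Got1 and Mdh1 of the malate-aspartate shuttle at 504 ± 74.6 and 240 ± 29.3, and their mitochondrial partners Got2 and Mdh2 at 215 ± 3.55 and 167 ± 17.0. Sord, of sorbitol breakdown, was at 325 ± 59.2 FPKM, Bsg (basigin), the partner that brings MCT1 to the membrane, at 224 ± 14.4, and Dak, triokinase of fructose breakdown, at 138 ± 6.43. Brp44l, a subunit of the mitochondrial pyruvate carrier, was at 99.5 ± 16.4 FPKM. The remaining subunits of the pyruvate dehydrogenase complex were lower, with Dld at 44.1 ± 1.81, Dlat at 9.35 ± 2.68 and Pdhx at 3.13 ± 0.347 FPKM. Pgk2, Pdha2 and Ldhal6b, genes of testis, were listed at 0 in all 3 rats. Of the 32 genes of this list with a mean of at least 1 FPKM, 19 were lowest in rat 3 on scaled values, the same number as among the members.

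Between the species, LDHA was the one member that could be set side by side. It was listed at 0 in each of the 3 NMR libraries, against 1636, 1584 and 1480 FPKM in the 3 rats. limma on log2(scaled FPKM + 1) over 288 shared symbols gave an adjusted p = 9.63e-10 with higher values in 3 of 3 rats, so 1 of 1 member was called. With 0 in each NMR library, LDHA met the filter (scaled FPKM of 1 or more in 3 or more libraries) through the rats alone. Its direction was thus fixed beforehand, and the call adds nothing to the listed values. Under the same rule 41.0% of the symbols tested were called higher in rat and 73.6% were called in either direction, so such a call was common. No fold difference is given against values listed at 0. The NMR row spans 474 bp, on scaffold748 from 63798 to 64272, whereas the rat row spans 9471 bp. Of the NMR rows up to 1000 bp long, 110 of 157 (70.1%) were listed at 0 in all 3 libraries, against 131 of 577 longer rows (22.7%). Species, genome, annotation and row length coincide here and cannot be told apart, so the value of 0 says how this row is listed and not that NMR liver lacks the transcript. No other member and 0 of the 52 further pathway symbols had a row in the NMR tables used here.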

How the data were processed

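Polyadenylated RNA of liver was sequenced in 3 NMR and 3 rat libraries. Values are FPKM per gene as deposited by the authors, 1 table per library, with the columns of a Cufflinks gene table per the file headers; per the submitters' processing notes the tools included Cufflinks 2.1.1, TopHat2 2.0.9, Picard 1.137 and Bowtie2 2.1.0. Genome build, annotation and use of strand were not given in the sources used here. Rows with status HIDATA were treated as missing; no member had one. Rows of 1 symbol were summed.

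Members, lists and isozyme steps were chosen with earlier results of these data known. Every member was named whatever its values; of the further pathway genes, those of at least 10 FPKM or on which a member result turns were eligible, and Slc16a3, Dlat, Pdhx, Ppargc1a, Slc2a5, Bpgm and the testis genes were named with their values known; some genes of that list are counted but not reported here by name. Isozyme and opposed-enzyme ratios were computed within each rat library with no pseudocount and tested by exact sign-flip permutation. The spread between rats was computed on log2(FPKM + 1) after median-ratio scaling over 9541 rows above 1 FPKM. The species comparison scaled 6 libraries by the median ratio over shared symbols, tested 288 of 388 symbols (scaled FPKM of 1 or more in 3 or more libraries), and used limma 3.58.1 in R 4.3.3 with its trend option and Benjamini-Hochberg adjusted p-values. A symbol was called when its log2 difference was 1 or more and its adjusted p below 0.05. The limma step was tested on simulated data. Promoter windows are RefSeq GRCr8. Alternatives were scaling, pseudocount, filter, rows per symbol, a replicate block and leaving out each library.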

Additional observations from a re-analysis of the deposited data

How the results depend on the processing

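The alternatives for the 14 isozyme and opposed-enzyme ratios bear on their size, not their direction: each ratio has 1 sign in all 3 rats, so neither leaving out a rat nor adding 1 FPKM to both sides can reverse it, and leaving out other forms can only raise it. With 1 FPKM added, the log2 ratio was 8.48 in place of 10.45 for Fbp1 over Fbp2, 7.68 in place of 8.76 for G6pc over Hk2 and Hk3, and 9.16 in place of 9.82 for Ldha over Ldhb and Ldhc. Leaving out forms under 1 FPKM gave no value where nothing remained. Each member has 1 row, so taking the highest row changed no ratio or level. Scaling the rats moved the mean level of each of the 42 members by less than 1 SD; leaving out 1 of 3 rats could not move a mean by more than that. The number of members with a spread above the median of all rows was 23, and 18 to 24 with 1 rat left out. LDHA was called higher in rat in each of 14 alternatives, with limma adjusted p from 2.29e-10 to 3.45e-07. The NMR values of 0 left only this direction possible under every alternative. With the replicate block 1 member was again called, with adjusted p = 1.19e-07, and the number of symbols called higher in rat stayed at 118. Same-numbered libraries of the 2 species shared only a number (correlations of deviations from -0.0864 to -0.0355 over 288 symbols), so this block pairs nothing. Depth, known only as a ratio between rats, limits the forms under 1 FPKM.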

Other observations

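Bpgm, the enzyme making 2,3-bisphosphoglycerate in red cells, was picked with its values known and was at 4.13, 8.09 and 8.01 FPKM in rat 1, rat 2 and rat 3. Hbb, a globin and the 1 red cell marker of 4 found in the tables, was at 54.4, 357 and 348 FPKM in the same rats. Both were low in rat 1 and close to level in the other two. Of the 32 members with a mean of at least 1 FPKM, 7 (21.9%) were lowest in rat 1, against 32.3% of all such rows. The part of blood in these values was not tested.

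Slc2a5, the fructose transporter GLUT5, was at 4.86, 9.90 and 6.55 FPKM, highest in rat 2, as were Khk (281, 377 and 303 FPKM) and Sord (285, 393 and 297 FPKM), which act in the breakdown of fructose and in making it from sorbitol. Dak, triokinase of the same route, was highest in rat 1, at 143, 141 and 131 FPKM.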
